A study of Homo sapiens with 16 samples.

Results

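Interferon-stimulated genes were examined in U-87MG, a long-established glioblastoma line of human origin. The submitters call it proficient in the aryl hydrocarbon receptor (AHR), a ligand-activated transcription factor. The genes are a list of 45 symbols drawn up for this purpose. A gene counted as measured when the deposited table had a row whose platform annotation gave that symbol alone, and 40 of the 45 met this, among 14040 genes in all. IFIT1, IFIT2, RSAD2, BST2 and ISG20 had no such row and were not analysed here. The control arm had received the carrier DMSO at 0.1%. The other arms had received 25 µM of the tryptophan-derived keto acid indole-3-pyruvate (I3P), 1 µM of SR1, which is an antagonist of the AHR, or both compounds together (I3P+SR1). Each condition had 4 arrays, numbered as biological replicates 1 to 4, so that each replicate number held 1 array of every condition. The labels do not say whether the numbers stand for separate cultures, and p-values measure the spread between these arrays. A single cell line was used, no interferon was given in any arm, and the length of treatment is not given in the sources used here.

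Interferons bind receptors at the cell surface and, through the kinases JAK1 and TYK2, activate a complex that includes STAT2 and IRF9. That complex binds the interferon-stimulated response element (ISRE) in the promoters of a large set of genes. Their products sense foreign RNA, degrade it, block viral entry and replication, conjugate ISG15 to proteins, or prepare peptides for presentation. IRF7, itself one of these genes, encodes the factor that drives the transcription of type I interferon genes once it is phosphorylated. The AHR, when bound by a ligand, enters the nucleus and activates genes such as CYP1B1 and TIPARP.

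Of the 40 genes, 33 had an entry in the RefSeq promoter table (build GRCh38.p14). IRF7, OAS2, OASL, MX2, TRIM22, GBP2 and USP18 were the others. In the 250 bases upstream of the start, searched on both strands, 16 of 33 held the ISRE core, GAAA repeated after any 2 bases, against 3.07% of 27305 promoters in the table. The core of the AHR response element, GCGTG, was present in 11 of 33, a share of 33.3%, and in 31.9% of all promoters. No ISRE core overlapped a GCGTG in these promoters. A match describes letters in the window and not a bound site. Below are the upstream 250 bases of IFI44L and IFI44, neighbouring genes whose levels were highest in SR1 in every replicate number, and of ISG15, the ubiquitin-like modifier that gives the set its best-known marker, each 5′ to 3′ on the plus strand with the ISRE core in capitals.
IFI44L (chr1:78620198-78620447): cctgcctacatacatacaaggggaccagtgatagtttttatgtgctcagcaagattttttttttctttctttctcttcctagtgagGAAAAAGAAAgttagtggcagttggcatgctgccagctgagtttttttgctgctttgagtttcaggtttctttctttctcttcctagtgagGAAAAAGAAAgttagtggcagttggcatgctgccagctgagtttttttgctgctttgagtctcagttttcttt
IFI44 (chr1:78649539-78649788): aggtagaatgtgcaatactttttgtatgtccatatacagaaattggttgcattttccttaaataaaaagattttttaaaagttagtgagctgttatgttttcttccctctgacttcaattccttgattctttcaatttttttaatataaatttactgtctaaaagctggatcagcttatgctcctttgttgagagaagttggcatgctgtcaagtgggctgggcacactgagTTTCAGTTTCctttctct
ISG15 (chr1:1013247-1013496): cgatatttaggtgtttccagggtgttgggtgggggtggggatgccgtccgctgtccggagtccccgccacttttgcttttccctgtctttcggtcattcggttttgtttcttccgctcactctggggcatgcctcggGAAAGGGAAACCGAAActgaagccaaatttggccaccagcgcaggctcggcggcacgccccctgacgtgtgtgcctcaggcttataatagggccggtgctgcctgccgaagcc
The ISRE cores began 164 and 73 bases upstream of the start in IFI44L, 18 bases upstream in IFI44, and 113 and 107 bases upstream in ISG15. IFI44L and IFI44 had no GCGTG in this window, and ISG15 had 1.

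Values are log2 expression, so that a difference of 1 is a doubling. The genes' means over the 16 arrays ran from 7.14 (IFI27) to 10.63 (IFI16), with a median of 8.24 beside 8.34 for all genes. The 4 highest were IFI16, EIF2AK2, DTX3L and PSMB8, and the 4 lowest IFIT3, OAS2, IFIH1 and IFI27. Of the 40 genes, 22 lay below the median of all genes and 10 below its 25th percentile, among them the classical markers ISG15, MX2, OAS2 and IFIT3. No detection calls were used, so whether the dimmest rows stood above background was not assessed, and since probes differ in brightness these places among all genes describe signal and do not order genes by RNA amount. The U-87MG markers VIM, TNC, CD63 and CD44 lay at percentiles 99.8, 99.8, 99.1 and 86.2 of all genes, and 8 of 8 were measured, while the astrocyte marker GFAP lay at 37.2 and NES at 22.8. Of 7 haematopoietic markers 3 were measured, PTPRC at percentile 9.96, CD3E at 30.6 and ITGAM at 63.6. The AHR target CYP1B1 fell by 2.57 in SR1 against DMSO (adjusted p = 8.5e-08) and differed by 0.35 in I3P against DMSO (adjusted p = 0.999). CYP1B1 rose by 2.56 in I3P+SR1 against SR1 (limma adjusted p = 9.13e-08), and its difference in I3P+SR1 against DMSO was -0.01. The I3P array of replicate 1 stood apart: over all genes its correlation with each of the others was 0.877 to 0.910, while the other 15 correlated among themselves at 0.921 to 0.979.

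**Figure D1:**
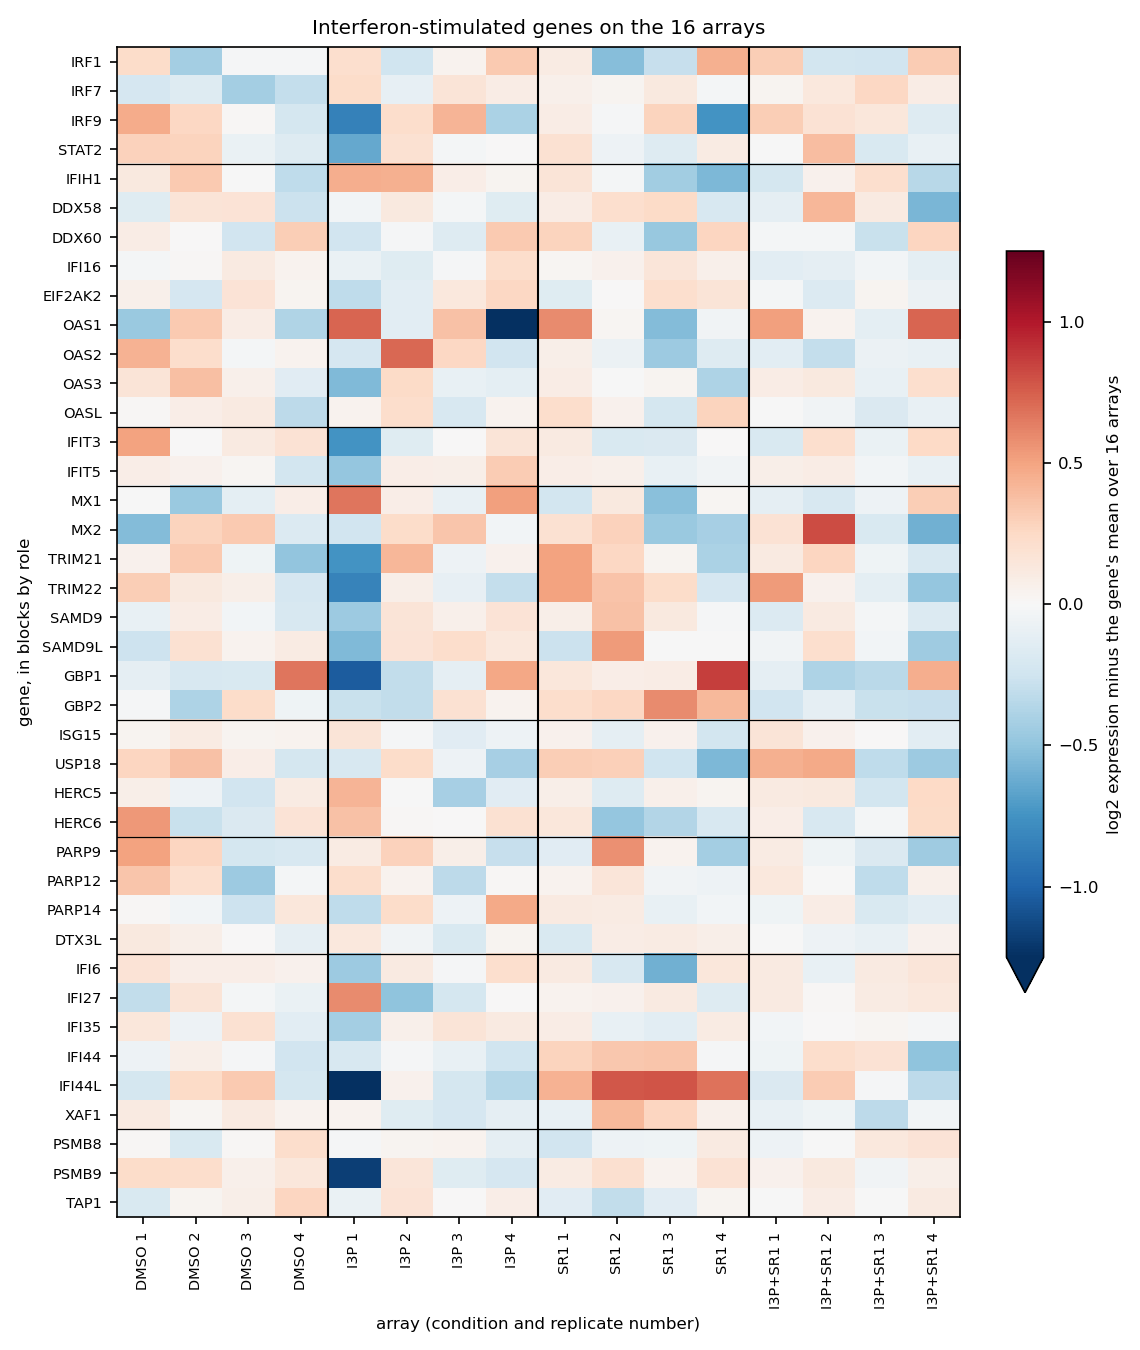
Heat map of the 40 measured interferon-stimulated genes (rows, in blocks by role) on the 16 arrays (columns), coloured by log2 expression minus the gene's mean over the 16 arrays and clipped at the low end of the scale. IRF7 is below its mean on all 4 DMSO arrays, and the I3P array of replicate 1 holds the lowest value of 15 genes.

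IRF7, at percentile 32.4 of all genes by its mean over the 16 arrays, had its lowest value in DMSO in all 4 replicate numbers. On the DMSO arrays of replicates 1 to 4 it stood at 7.58, 7.63, 7.36 and 7.49. On the I3P arrays it stood at 8.01, 7.68, 7.95 and 7.88. On the SR1 arrays it stood at 7.85, 7.82, 7.91 and 7.76, and on the I3P+SR1 arrays at 7.82, 7.91, 8.05 and 7.88. All 12 arrays from cells given I3P, SR1 or both thus lay above all 4 DMSO arrays. These are bulk RNA values, in which fewer cells of a type and less RNA per cell cannot be told apart. Group means were 7.51 ± 0.11 in DMSO, 7.88 ± 0.14 in I3P, 7.83 ± 0.06 in SR1 and 7.92 ± 0.10 in I3P+SR1 (SD, n = 4 each).

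The difference of IRF7 from DMSO was 0.37 in I3P (SE 0.10, 95% interval 0.15 to 0.58), a 1.29-fold higher mean. It was 0.32 in SR1 (SE 0.10, 95% interval 0.10 to 0.53) and 0.40 in I3P+SR1 (SE 0.10, 95% interval 0.19 to 0.62). These comparisons set each compound, or both, beside the arm given 0.1% DMSO. The DMSO content of the other arms is not given in the sources used here. Carrier content and compound therefore cannot be told apart in them. By limma the unadjusted p was 0.00236, 0.0062 and 0.00108, but none passed after Benjamini-Hochberg adjustment over the 14040 genes, with adjusted p of 0.999, 1 and 1. The 3 comparisons share the 4 DMSO arrays, so low values on those arrays enter each of them. The DMSO array carried the first number of its title prefix in every replicate number, and the I3P array the number after it. Place in that order and condition cannot be told apart for either of them. The 3 measured of 5 endothelial markers had a mean log2 level, with ranges that overlapped between DMSO and each other condition, of 7.23 to 7.79 in DMSO, 7.69 to 8.12 in I3P, 7.41 to 7.81 in SR1 and 7.74 to 8.04 in I3P+SR1. PECAM1 and CDH5 had no row with 1 symbol, log2 array values have no 0 for absent RNA, and the part of these markers in the IRF7 differences was not tested. The 3 measured of 5 plasmacytoid dendritic cell markers, a cell type rich in IRF7, had overlapping ranges of 7.93 to 8.03 in DMSO, 7.72 to 8.24 in I3P, 7.81 to 8.01 in SR1 and 7.76 to 8.04 in I3P+SR1.

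Between the 3 groups above DMSO, IRF7 did not differ beyond the spread of its arrays. I3P+SR1 against SR1 gave 0.08 (95% interval -0.13 to 0.30, unadjusted p = 0.419) and I3P+SR1 against I3P gave 0.04 (-0.18 to 0.25, unadjusted p = 0.716). The sign of the latter turned to -0.03 without I3P replicate 2 and to -0.0065 without I3P+SR1 replicate 3. The interaction, the effect of I3P in the presence of SR1 minus its effect without, was -0.28 (SE 0.14, 95% interval -0.59 to 0.02, unadjusted p = 0.0671, adjusted p = 1). Taken as 1 contrast, a choice made after the values were seen, the mean of the 3 groups exceeded DMSO by 0.36 (SE 0.08, 95% interval 0.19 to 0.54). Its unadjusted p of 4.61e-04 ranked 2 of 14040 genes and gave an adjusted p of 1. Among all 14040 genes 4, or 0.0285%, had 4 DMSO arrays that did not overlap the other 12. IRF7 and IGSF22 had the 12 arrays above, a share of 0.0142%, and COL16A1 and OPN3 had them below. At an unadjusted p under 0.05, 1.24% of all genes passed in this contrast, and 0% passed after adjustment.

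**Figure D2:**
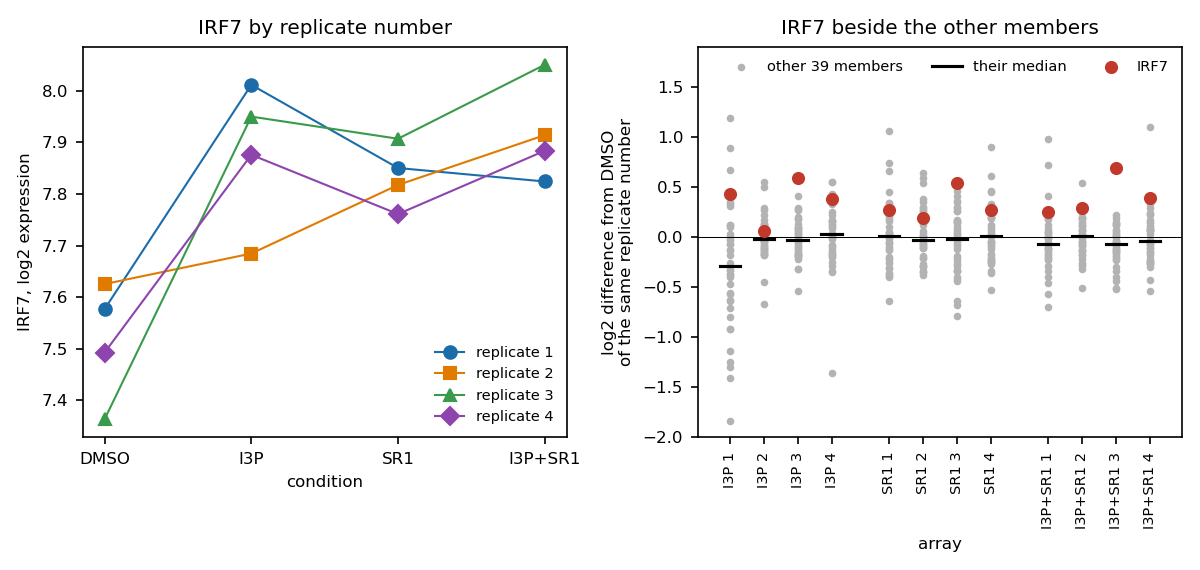
Left, IRF7 log2 expression by condition, a line and marker for each replicate number. Right, log2 difference from the DMSO array of the same replicate number for IRF7 (red), the other 39 measured genes (grey points) and their median (black bar). IRF7 is above DMSO in all 12 pairs, while the medians of the others lie between -0.29 and 0.03. The lowest median is that of the I3P array of replicate 1.

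Within replicate number, IRF7 was set beside the rest of the list. From DMSO to I3P it changed by 0.43, 0.06, 0.59 and 0.38 in replicates 1 to 4, where the median of the other 39 genes changed by -0.29, -0.02, -0.03 and 0.03. The -0.29 rests on the I3P array of replicate 1, which stood apart, and the median over all genes there was -0.09. From DMSO to SR1 IRF7 changed by 0.27, 0.19, 0.54 and 0.27, beside medians of 0.0081, -0.03, -0.02 and 0.0088. From DMSO to I3P+SR1 it changed by 0.25, 0.29, 0.69 and 0.39, beside medians of -0.07, 0.01, -0.07 and -0.04. In replicate 3 IRF7 had the highest signed difference of the 40 genes in all 3 comparisons with DMSO, although in SR1 MX2, at -0.79, and others lay farther from 0 on the negative side. Its rank from the top among the 40 in the other replicate numbers was 4, 15 and 4 for I3P, 7, 12 and 6 for SR1, and 4, 2 and 2 for I3P+SR1, in the order 1, 2, 4. No p is given for this contrast, because IRF7 and the list were put forward with results of these arrays known.

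The other 3 transcription factors of the list had differences from DMSO that did not pass the test. IRF9, part of the interferon-activated complex, had -0.28 in I3P, -0.23 in SR1 and -0.01 in I3P+SR1, and STAT2, of the same complex, had -0.20, -0.06 and -0.06. Without the I3P array of replicate 1 the I3P differences were -0.05 for IRF9 and -0.02 for STAT2. IRF1, a factor induced by interferon gamma, had 0.14, -0.01 and 0.09, and 0.10 in I3P without that array. After each replicate number's mean was removed, the correlation of IRF7 with the other 39 genes over 16 arrays ran from -0.56 to 0.41 (IFI27) with a median of -0.19, and 11 of 39 were positive. The highest correlations in the whole table were with SF3B1 (0.85), BCKDHA (0.81), ARMC5 (0.80), CERS4 (0.79) and CNTD2 (0.78), none of them in the list. These are descriptions over arrays that share replicate numbers. They include the I3P array of replicate 1, which held the lowest value of 15 genes of the list, and are not given without it. SF3B1, a core splicing factor, had group means of 11.07 in DMSO, 11.15 in I3P, 11.11 in SR1 and 11.16 in I3P+SR1.

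By limma, 0 of the 40 genes passed at an adjusted p under 0.05 in each of the 6 comparisons. In I3P against DMSO 0% of all genes passed, and at an unadjusted p under 0.05 there were 4 of 40 beside 2.81% of all genes. In SR1 against DMSO 0.164% of all genes passed, and 2 of 40 had an unadjusted p under 0.05 beside 2.93%. With I3P+SR1 against DMSO 0% passed, and 1 of 40 had such a p beside 1.38%. With I3P+SR1 against SR1 0.114% passed, and 3 of 40 had such a p beside 3.7%. With I3P+SR1 against I3P 0% passed, and 0 of 40 had such a p beside 3.32%. For the interaction 0.00712% passed, and 1 of 40 had such a p beside 2.02%. Of 40 genes such background shares amount to about 1 gene, and the counts other than the 4 in I3P against DMSO lay within 2 of it. With the replicate block, a term for the replicate number, the counts at an unadjusted p under 0.05 were 4 beside 6.28%, 5 beside 6.17%, 1 beside 2.64%, 6 beside 7.56%, 2 beside 6.92% and 1 beside 3.96%, in that order. Adjusted over all genes 0 of 40 passed with the block, where 0.321% of all genes passed in SR1 against DMSO and in I3P+SR1 against SR1.

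Groups that did not overlap were found for 1 of 40 genes in I3P against DMSO (IRF7) beside 1.57% of all genes, and for 2 in SR1 against DMSO (IRF7 and IFI44L) beside 2.45%. They were found for 4 in I3P+SR1 against DMSO (IRF7, XAF1, OAS2 and IFI16) beside 1.22%, for 3 in I3P+SR1 against SR1 (GBP2, IFI44L and IFI16) beside 2.91%, and for 0 in I3P+SR1 against I3P beside 1.35%. The median difference of the 40 genes was -0.04 in I3P against DMSO beside -0.02 for all genes, -0.0017 in SR1 against DMSO beside 0.0025, and -0.04 in I3P+SR1 against DMSO beside -0.0083. It was 0.0030 in I3P+SR1 against SR1 beside -0.0092, and 0.01 in I3P+SR1 against I3P beside 0.01. The half-width of a gene's 95% interval in a comparison of 2 groups ran from 0.20 to 0.86 with a median of 0.37, which limits the differences of single genes that these arrays could show.

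**Figure D3:**
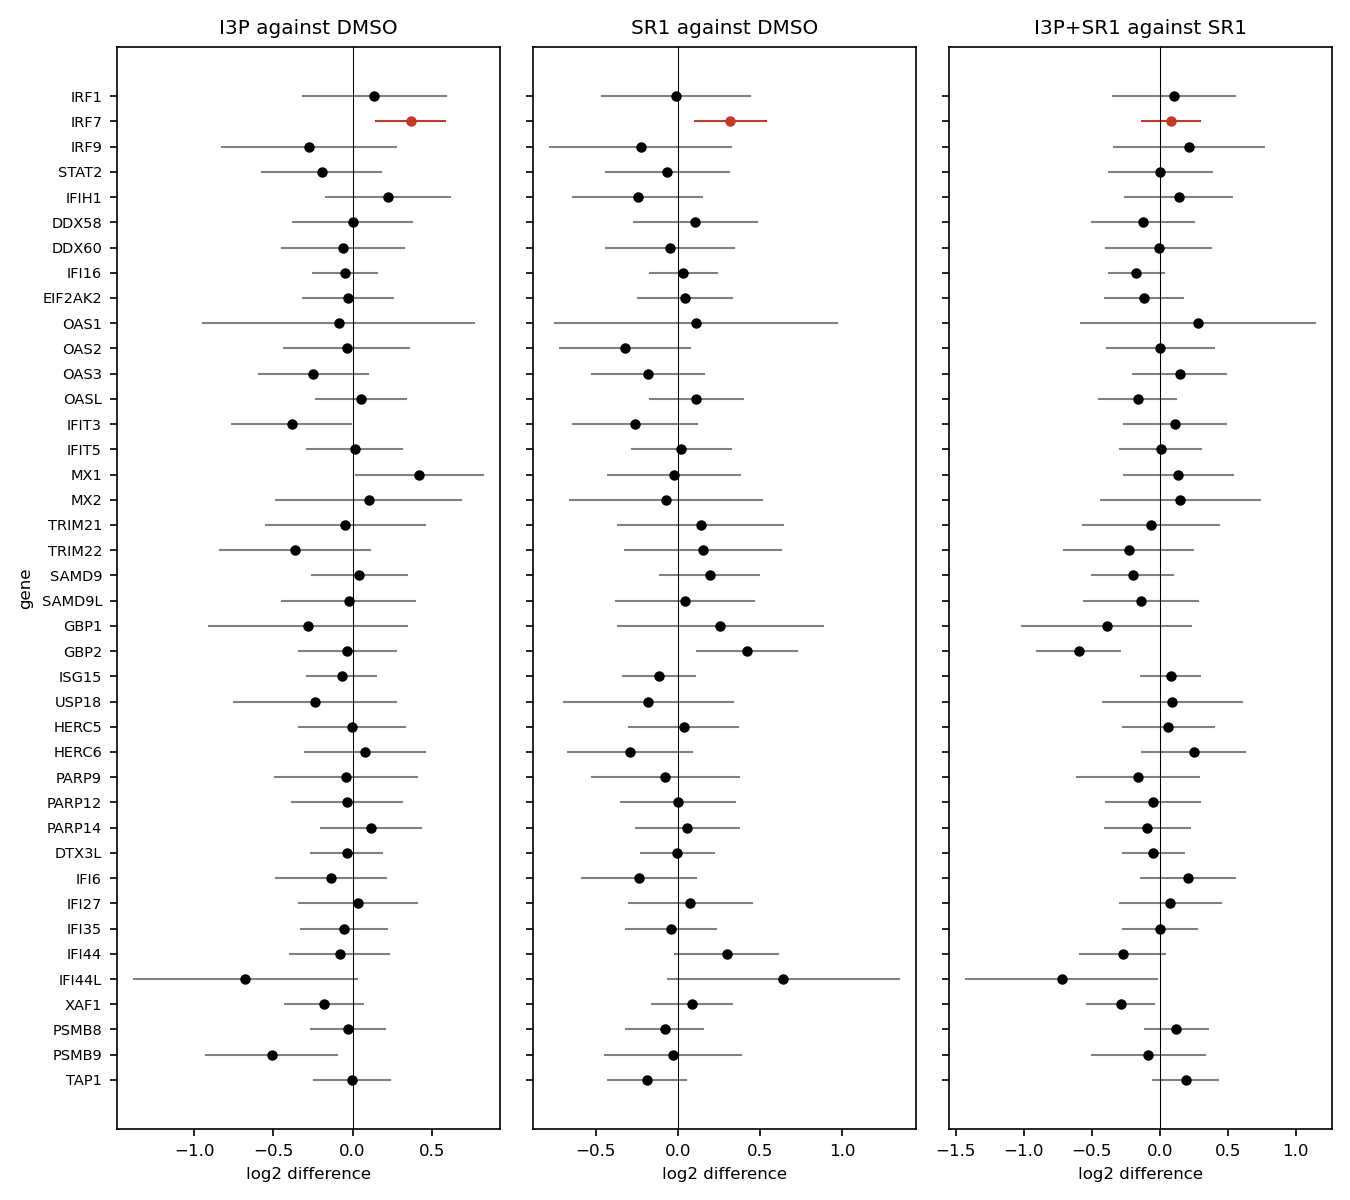
Log2 differences (points) with 95% intervals of the shared limma fit (lines) for the 40 measured genes in 3 comparisons, IRF7 in red; intervals are for a single gene, without adjustment. The IRF7 interval lies above 0 in I3P against DMSO and SR1 against DMSO and spans 0 in I3P+SR1 against SR1, where that of GBP2 lies below 0.

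With SR1 alone, 4 of the 40 genes were at their highest of the 4 conditions in every replicate number, beside 2.78% of all genes. IFI44L was also the lowest in I3P in every replicate number, as 1.07% of all genes were, and IRF7 the lowest in DMSO, as 0.214% were. None of the 40 was in every replicate number the highest in I3P (1.2% of all genes), in DMSO (0.15%) or in I3P+SR1 (0.192%), or the lowest in SR1 (1.67%) or in I3P+SR1 (0.278%). The 4 genes highest in SR1 were GBP1 and GBP2, interferon-induced guanylate-binding proteins that act on vacuoles and membranes of pathogens, and IFI44 and IFI44L, related antiviral proteins. All 4 lie on chromosome 1, as do IFI16, ISG15 and IFI6, which were not highest in SR1 in every replicate number. GBP2 stood at 7.30, 6.93, 7.54 and 7.26 in DMSO, at 7.03, 7.003, 7.50 and 7.36 in I3P, at 7.53, 7.57, 7.90 and 7.72 in SR1, and at 7.07, 7.20, 7.03 and 7.02 in I3P+SR1. By its mean over the 16 arrays, 7.31, GBP2 was a dim row, at percentile 13.7 of all genes. The SR1 arrays of GBP2 lay above every I3P+SR1 array and overlapped DMSO by a single array, that of DMSO replicate 3. Its difference was 0.42 in SR1 against DMSO (SE 0.14, unadjusted p = 0.0101, adjusted p = 1) and -0.60 in I3P+SR1 against SR1 (SE 0.14, unadjusted p = 7.69e-04, adjusted p = 0.3), the lowest adjusted p of any of the 40 genes in any comparison. The replicate block gave adjusted p of 0.29 and 0.062. The interaction for GBP2 was -0.56 (SE 0.20, unadjusted p = 0.014, adjusted p = 1).

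IFI44L stood at 8.96, 9.42, 9.51 and 8.97 in DMSO, at 7.12, 9.24, 8.97 and 8.83 in I3P, at 9.62, 9.96, 9.97 and 9.87 in SR1, and at 9.004, 9.50, 9.17 and 8.86 in I3P+SR1. All SR1 arrays of IFI44L lay above all arrays of DMSO and of I3P+SR1, and its lowest value was on the I3P array of replicate 1. The difference was 0.64 in SR1 against DMSO (SE 0.33, unadjusted p = 0.0713, adjusted p = 1) and -0.72 in I3P+SR1 against SR1 (SE 0.33, unadjusted p = 0.0446, adjusted p = 1). Without the I3P array of replicate 1, which enters these comparisons only through the shared spread, the SE was 0.16 and the unadjusted p 0.00147 and 5.36e-04, with adjusted p of 0.376 and 0.198. Its interaction moved from -0.05 to -0.52 (unadjusted p = 0.049, adjusted p = 1) without that array.

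IFI44 stood at 9.47, 9.60, 9.52 and 9.29 in DMSO, at 9.33, 9.51, 9.44 and 9.28 in I3P, at 9.80, 9.87, 9.88 and 9.51 in SR1, and at 9.48, 9.75, 9.71 and 9.03 in I3P+SR1. The SR1 arrays of IFI44 overlapped both DMSO and I3P+SR1 through replicate 4, whose values were the lowest of each condition. Its differences were 0.30 in SR1 against DMSO (unadjusted p = 0.0614) and -0.27 in I3P+SR1 against SR1 (unadjusted p = 0.0826), with the first between 0.22 and 0.36 in the 4 same-numbered pairs. IFI44 and IFI44L correlated at 0.74 over the 16 arrays after the replicate means were removed, and at 0.79 without the I3P array of replicate 1. GBP1 had 0.26 in SR1 against DMSO and -0.39 in I3P+SR1 against SR1, with unadjusted p of 0.395 and 0.202. Its first difference was between 0.20 and 0.29 in the 4 same-numbered pairs. With the replicate block, limma's unadjusted p in SR1 against DMSO was 0.125 for GBP1, 0.00703 for IFI44 and 0.0299 for IFI44L. The adjusted p with the block was 0.981, 0.405 and 0.69. XAF1, an interferon-induced antagonist of the apoptosis inhibitor XIAP, stood at 7.68, 7.59, 7.68 and 7.61 in DMSO, at 7.61, 7.42, 7.36 and 7.45 in I3P, at 7.47, 7.97, 7.83 and 7.62 in SR1, and at 7.47, 7.51, 7.24 and 7.53 in I3P+SR1. Its I3P+SR1 arrays lay below all DMSO arrays, by 0.20 in the means (unadjusted p = 0.102), and its difference from SR1 was -0.29 (unadjusted p = 0.0252, adjusted p = 1). SR1 against DMSO and I3P+SR1 against SR1 share the SR1 arrays, so high values on those arrays enter both.

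**Figure D4:**
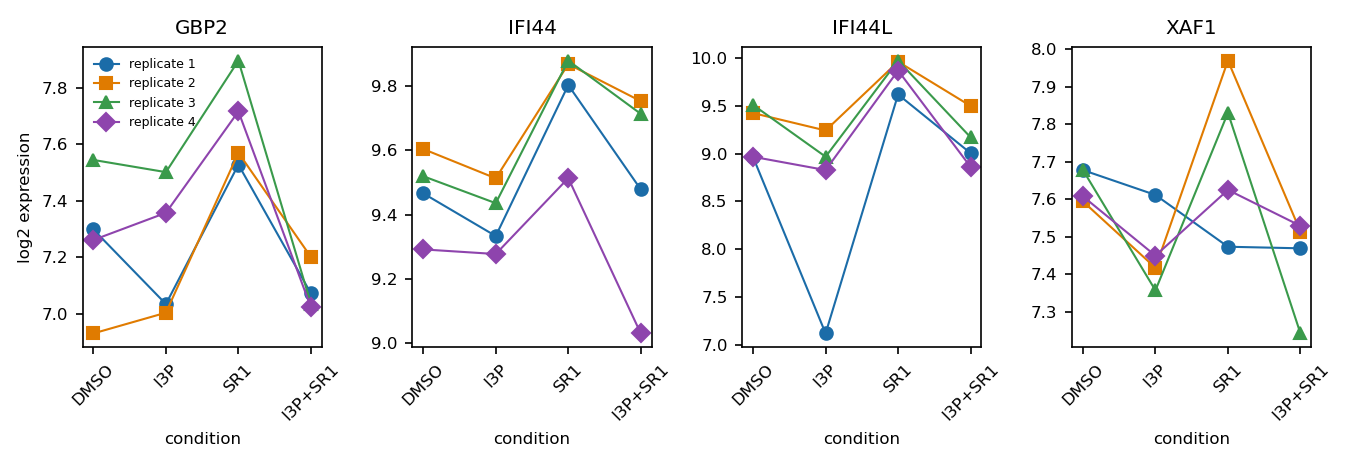
Log2 expression of GBP2, IFI44, IFI44L and XAF1 by condition, with a line and marker for each replicate number; the axes differ in range. GBP2, IFI44 and IFI44L peak at SR1 in all 4 replicate numbers, and IFI44L has a single low point of 7.12 on the I3P array of replicate 1.

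With I3P alone, 4 genes had an unadjusted p under 0.05, and for all 4 the I3P array of replicate 1 was the farthest of the I3P arrays from the DMSO mean. For PSMB9, MX1 and IFIT3 it was also the extreme of all 16 arrays. PSMB9, an immunoproteasome subunit, stood at 9.58, 9.57, 9.42 and 9.49 in DMSO and at 8.18, 9.50, 9.20 and 9.14 in I3P. It differed by -0.51 (SE 0.20, unadjusted p = 0.0186, adjusted p = 0.999), and by -0.24 without that array (unadjusted p = 0.0396, adjusted p = 1). MX1, a GTPase that blocks replication of RNA viruses, stood at 8.02, 7.55, 7.90 and 8.10 in DMSO and at 8.69, 8.10, 7.92 and 8.53 in I3P. The difference of MX1 was 0.42 (SE 0.19, unadjusted p = 0.0413, adjusted p = 0.999), and 0.29 without that array (unadjusted p = 0.144). IFIT3, which binds the RNA-binding IFIT proteins, stood at 7.73, 7.22, 7.33 and 7.40 in DMSO and at 6.48, 7.07, 7.23 and 7.38 in I3P, a difference of -0.38 (unadjusted p = 0.0463) that became -0.20 without that array (unadjusted p = 0.204). In SR1 it stood at 7.34, 7.04, 7.04 and 7.22 and in I3P+SR1 at 7.03, 7.43, 7.14 and 7.48, with an interaction of 0.49 (unadjusted p = 0.0672, adjusted p = 1) that became 0.30 without that array (unadjusted p = 0.149). For IRF7, the remaining gene of the 4, the difference without that array was 0.32 (unadjusted p = 0.00692, adjusted p = 1).

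The I3P array of replicate 1 held the lowest of the 16 values for 15 of the 40 genes, or 37.5%, beside 24.2% of all genes, and the highest for 6, or 15%, beside 17.0%. The 15 include IRF9, STAT2, TRIM21, TRIM22, SAMD9, SAMD9L, GBP1 and OAS3. With all arrays 29 of 40 genes had a negative difference in I3P against DMSO and 11 a positive one. Of all genes 45.6% had a positive difference there. Without that array 20 of the 40 had a negative difference. The closest pairs among the other 39 genes also leaned on it. GBP1 and IFI44L correlated at 0.94 with it and 0.87 without it, TRIM22 and GBP1 at 0.93 and 0.85, and TRIM22 and PSMB9 at 0.90 and 0.67. The median correlation over all 741 pairs was 0.06, and 0.03 without that array.

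Of the 9 RNA sensors and nucleic acid binders, 0 passed by limma and 0 had an unadjusted p under 0.05 in any comparison, and their differences in the comparisons with DMSO ran from -0.32 (OAS2 in SR1) to 0.39 (OAS1 in I3P+SR1). OAS1 had a single low value of 5.77 on the I3P array of replicate 4. OAS2, a synthetase that activates RNase L, stood at 7.66, 7.44, 7.20 and 7.27 in DMSO, at 7.01, 7.94, 7.48 and 6.98 in I3P, at 7.30, 7.15, 6.76 and 7.06 in SR1, and at 7.09, 6.93, 7.15 and 7.13 in I3P+SR1. Its I3P+SR1 arrays lay below all its DMSO arrays (difference -0.32, unadjusted p = 0.107). IFIH1, the sensor MDA5, stood at 7.63, 7.62, 7.25 and 7.21 in I3P and at 6.95, 7.23, 7.39 and 6.82 in I3P+SR1, a difference of -0.33 (unadjusted p = 0.0945) in groups that overlapped. DDX58, the sensor RIG-I, had group means of 8.03 in DMSO, 8.03 in I3P, 8.13 in SR1 and 8.01 in I3P+SR1. IFI16, a DNA sensor, was at 10.67 ± 0.06 in DMSO and 10.53 ± 0.05 in I3P+SR1 (SD, n = 4 each), groups that did not overlap, with a difference of -0.14 (unadjusted p = 0.165).

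ISG15, the ubiquitin-like modifier, was at 7.28 ± 0.03 in DMSO, 7.21 ± 0.13 in I3P, 7.17 ± 0.14 in SR1 and 7.25 ± 0.12 in I3P+SR1 (SD, n = 4 each). Over ISG15, its protease USP18, its ligase HERC5 and the related HERC6, differences from DMSO ran from -0.29 (HERC6 in SR1) to 0.10 (HERC5 in I3P+SR1). The PARP9, PARP12, PARP14 and DTX3L group, ADP-ribosyltransferases and a ubiquitin ligase partner, had differences from DMSO between -0.23 (PARP9 in I3P+SR1) and 0.12 (PARP14 in I3P). TAP1 and PSMB8, which serve peptide loading of class I molecules, stayed between -0.19 (TAP1 in SR1) and 0.04 (PSMB8 in I3P+SR1).

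More of these genes were called for replicate number than in any comparison of conditions. In a fit with condition and replicate number, limma's F test called 10 of 40 genes for replicate number at an adjusted p under 0.05, beside 22.3% of all genes, so the share among the 40, 25%, was near that of the table. USP18, which also curbs interferon receptor signalling, had means of 8.24, 8.38, 7.90 and 7.62 in replicates 1 to 4 (adjusted p = 0.00389). Its values ran from 7.83 to 8.48 in replicate 1 and 8.26 to 8.51 in replicate 2. They ran from 7.72 to 8.12 in replicate 3 and 7.47 to 7.82 in replicate 4. Replicate 4 thus lay below replicates 1 and 2, and replicate 3 below replicate 2, without overlap. GBP1 had means of 8.31, 8.39, 8.45 and 9.21 (adjusted p = 0.00392), with every replicate 4 array, from 9.04 to 9.46, above all other arrays, of which the highest was 8.73. IRF1 had means of 7.92, 7.35, 7.58 and 7.97 (adjusted p = 0.00442), and its replicate 2 arrays, from 7.18 to 7.48, lay below all arrays of replicates 1 and 4. HERC6 had means of 8.49, 7.97, 8.06 and 8.31 (adjusted p = 0.00997).

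**Figure D5:**
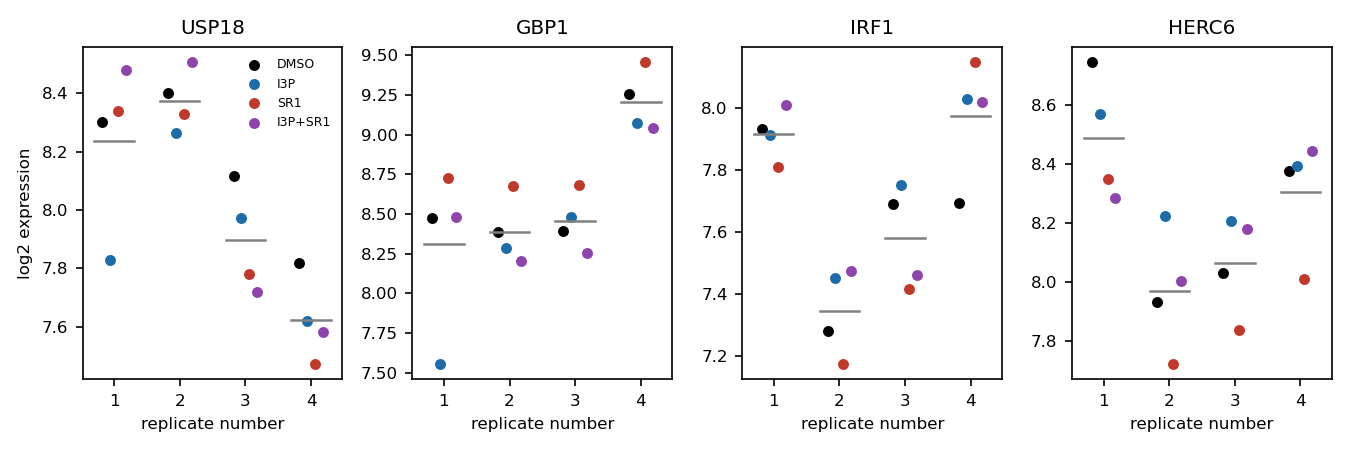
Log2 expression of USP18, GBP1, IRF1 and HERC6 by replicate number, with points coloured by condition and grey bars at the mean of each replicate number; the axes differ in range. The 4 arrays of replicate 4 for GBP1 lie between 9.04 and 9.46, and the highest array of the other replicate numbers is at 8.73.

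At an unadjusted p under 0.05 there were 14 of 40, beside 36.2% of all genes. The others called for replicate number were DDX60, DDX58, IFI44, PARP12, PARP9 and IFIH1, with the range of the 4 replicate means between 0.41 and 0.90 over the 10. The genes did not order the replicate numbers alike: the SMI arrays, the title series of replicates 3 and 4, had the lower mean for 7 of the 10 and the higher for 3. IRF7 had replicate means of 7.82, 7.76, 7.82 and 7.75 (F test adjusted p = 0.896). Over all 40 genes the median range of replicate means was 0.36, beside 0.32 over all genes.

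Other genes of the interferon pathway, were taken from 7 lists. Of 21 genes of the interferons themselves, 2 had a row with 1 symbol and 0 passed. IFNL3 was at 7.09 in DMSO and 7.51 in I3P, with a difference of 0.42 (unadjusted p = 0.0596), and IFNA14 had 0.18 in SR1 against DMSO (unadjusted p = 0.212). Of 8 measured receptors and kinases, 8 other STAT and IRF factors, 15 nucleic acid sensors and adaptors, 29 further interferon-inducible genes and 14 genes of antigen processing and presentation, 0 passed by limma in any of the 6 comparisons. Their numbers at an unadjusted p under 0.05 were at most 1 in each list and comparison. Those with the smallest p in I3P against DMSO were JAK1 at -0.11, STAT4 at 0.70 (unadjusted p = 0.0289), TICAM1, the adaptor of TLR3, at 0.24, PNPT1 at -0.19 and PSME2 at 0.40. In SR1 against DMSO they were TYK2 at -0.26, IRF2 at -0.33 (unadjusted p = 0.0262), TLR3 at 0.40, IFITM3 at -0.15 and CIITA at -0.16. Of these, some rows were dim: by mean over the 16 arrays STAT4 lay at percentile 1.87 of all genes and TLR3 at 11.3. IFNL3 lay at 13.3.

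Among 10 measured negative regulators of interferon signalling, TIPARP passed. TIPARP is an AHR-induced ADP-ribosyltransferase known to curb the kinase TBK1 in the type I interferon response. It fell by 1.34 in SR1 against DMSO (SE 0.22, adjusted p = 0.0174) and rose by 1.41 in I3P+SR1 against SR1 (SE 0.22, adjusted p = 0.013). In those 2 comparisons IRF7 had 0.32 and 0.08, and the median over the 40 interferon-stimulated genes was -0.0017 and 0.0030. TIPARP did not pass in I3P against DMSO (0.56), I3P+SR1 against DMSO (0.06) or I3P+SR1 against I3P (-0.49). There IRF7 had 0.37, 0.40 and 0.04. A link between TIPARP and IRF7 was not tested. SOCS3, an inhibitor of JAK kinases, had -0.39 in I3P+SR1 against SR1 (unadjusted p = 0.0377, adjusted p = 1).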

How the data were processed

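Total RNA, 100 ng per sample, was converted to labelled cDNA with Affymetrix's WT PLUS reagents, per the labels' protocols, and measured on 16 single-colour arrays. The deposited values are log2 expression, 1 per row and array. The tools named in the submitters' processing notes are oligo and RMA, without versions. RMA removes background, equalizes the arrays' distributions by quantiles and combines probes into rows. RMA compresses differences of dim genes. Raw intensities were not used here, so background correction could not be varied, and the number of arrays limits the precision. Array medians lay between 8.26 and 8.30.

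Of 16510 rows, 14096 had 1 symbol in the platform's annotation, 795 had several and 1619 were not listed. The row with the highest mean was kept for each symbol (52 genes had more than 1 row, no gene of the list among them), which gave 14040 genes. The genome build behind the probes is not given in the sources used here. DDX58 is the older symbol of RIGI.

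Linear models with moderated errors from limma 3.58.1, under R 4.3.3, gave each condition its mean over 16 arrays. From them 6 contrasts were taken, two-sided, with Benjamini-Hochberg adjustment over all 14040 genes. Replicate number was tested by an F test with 3 coefficients beside condition. The scripts' fits were tested on simulated data. Alternatives were a replicate block, title series, each array left out, a filter on dim genes, other scalings, variance models and row choice.

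Same-numbered arrays deviated together from their group means, with all correlations over 0.1, in 3 comparisons: for I3P+SR1 with SR1 (0.37 to 0.65), for I3P+SR1 with DMSO (0.22 to 0.52) and for SR1 with DMSO (0.30 to 0.52). The labels give the numbers as biological replicates. They did not for I3P against DMSO (-0.07 to 0.51) or I3P+SR1 against I3P (-0.09 to 0.55).

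The list, the related lists and IRF7 as the gene set against the rest were chosen with earlier results of these data known. Genes given on single arrays were IRF7, the 3 with the smallest p in each comparison and the 4 with the smallest p for replicate number; the pathway lists gave their passing genes, or else the 1 with the smallest p for I3P and for SR1 against DMSO. GBP1, IFI44L, IFI16 and others named for a shared pattern, and SOCS3, were chosen after their values were seen.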

Additional observations from a re-analysis of the deposited data

Results flagged for a closer look

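Of 56 sets of 4 arrays (14 genes given on single arrays or by replicate number, in 4 conditions), 2 held an array far from the others by Dixon's test, where chance flags about 1 in 20. Both concern GBP1 in replicate 4. The DMSO array of replicate 4 stood at 9.26, with the other DMSO arrays between 8.39 and 8.48, and the SR1 array of replicate 4 stood at 9.46, with the other SR1 arrays between 8.68 and 8.73. The I3P and I3P+SR1 arrays of replicate 4 were also the highest of their conditions, at 9.08 and 9.04.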

How the results depend on the processing

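Across 26 other settings, 16 of which left out 1 array, the count of interferon-stimulated genes passing stayed at 0 in each of the 6 comparisons, and the count for replicate number, run under 22 of them, ranged from 7 to 15 around 10. A difference counted as the same if it kept its sign and its side of the threshold. A count did so if it equalled or stayed near its main value. For replicate number, every count from 7 to 15 was taken as near 10. Of 718 values recomputed, 716 were the same. The others were IRF7 in I3P+SR1 against I3P, 0.04 with all arrays, which was -0.0277 without I3P replicate 2 and -0.0065 without I3P+SR1 replicate 3. With 1 array left out in turn IRF7 in I3P+SR1 against I3P ran from -0.0277 to 0.0813, the latter without I3P replicate 1; the number of arrays limits a difference of this size. The IRF7 difference from DMSO ran from 0.25 to 0.48 for I3P, 0.23 to 0.41 for SR1 and 0.27 to 0.54 for I3P+SR1, with the ends in fits within the SLI arrays (replicates 1 and 2) or the SMI arrays (replicates 3 and 4), and its lowest adjusted p under any setting was 0.341. The contrast of the 3 groups with DMSO, added after the values were seen, ran from 0.25 to 0.48.

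With the replicate block the IRF7 difference remained 0.37 for I3P (adjusted p = 0.766) and 0.32 for SR1 (adjusted p = 0.363), and the block changed no call on the list. It raised the number of all genes passing from 23 to 45 for SR1 against DMSO and from 16 to 45 for I3P+SR1 against SR1. With the dim genes left out, GBP2, OAS2, IFIH1 and IFIT3 were not tested. No alternative background correction or slide block was run.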
